A study of Drosophila melanogaster with 12 samples.

Results

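The divergent promoters of head-to-head gene pairs were examined in chromatin immunoprecipitation and sequencing (ChIP-seq) of elongating RNA Polymerase II (Pol II). A pair was made of neighbouring protein-coding genes on opposite strands, the minus-strand gene lying upstream, with gene 5′ ends no more than 500 bp apart on arms 2L, 3L, 3R and 4 of the dm6 genome. The gene models gave 1056 such pairs, with 330 on 2L, 315 on 3L, 406 on 3R and 5 on chromosome 4. Their 2112 gene starts are 23.7% of the 8897 protein-coding starts on these arms, and the genome as a whole has 13968. The 5′ ends lay 1 to 500 bp apart with a median of 249 bp. Each pair was given a window that runs from 1000 bp left of the minus-strand 5′ end to 1000 bp right of the plus-strand 5′ end. It includes the bases between the 5′ ends. The 1000 bp from a 5′ end in the direction of its gene are called the side of that gene, whatever the gene's length. In 328 pairs a gene is shorter than 1000 bp, so its side runs past the gene. Another protein-coding gene lies in the window of 292 pairs. Among those named below, these include *PAPLA1/Rbsn-5*, *CG15525/CG11504*, *Mitofilin/mRpL35*, *Myo31DF/CG6094*, *MtnE/MtnD*, *mRpL23/CG9004*, *CG2021/mRpL46*, *Taf10b/Taf10*, *Hsp67Bc/CG4456* and *Gr63a/Lamtor4*. Coverage in such a window cannot be credited to the named genes alone.

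The cells were Kc167, a female *Drosophila melanogaster* line derived from embryonic hemocytes, and the antibody recognised the serine 2 phosphorylated form of Pol II (S2), modified on its C-terminal domain. Cells were mock-treated without interfering RNA, depleted of Argonaute2 with siRNA (AGO2 KD), or depleted of LaminB with dsRNA (LaminB KD), so the 2 knockdowns also differ in reagent. Each group had 2 IP libraries, and nothing in the labels says whether they came from separate cultures. All are populations of 1 cell line, and the knockdowns were transient.

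In a divergent promoter, a pair of genes shares 1 short stretch of DNA from which Pol II is loaded in both directions, and in the compact fly genome many housekeeping genes are arranged in this way. Pol II is phosphorylated on serine 2 by kinases such as CDK9 as it leaves the promoter-proximal pause, so S2 marks polymerase that travels into the gene. In Drosophila, such promoters often carry sites for the factors DREF (the DNA replication-related element, DRE), BEAF-32 and Motif 1 binding protein, whereas TATA boxes and GAGA elements are typical of regulated genes. Argonaute2 is the effector of siRNA-guided silencing and is also found on chromatin, and LaminB builds the nuclear lamina.

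The bases between the 5′ ends of 9 pairs named below are shown as examples. Whether these bases bear on the coverage was not tested. They come from the RefSeq Release 6 assembly, whose coordinates are those of dm6, and are written from the minus-strand gene towards the plus-strand gene. Capitals mark the DRE letters TATCGATA, the BEAF-32 core CGATA, the Motif 1 core GGTCACACT and the E-box type letters CAGCTG on either strand. A CGATA core lies inside each DRE, and the marked letters are matches of sequence only. The first 4 pairs include genes whose side stayed covered in every library.
Hel25E/Lam, chr2L:5542315-5542479, plus strand: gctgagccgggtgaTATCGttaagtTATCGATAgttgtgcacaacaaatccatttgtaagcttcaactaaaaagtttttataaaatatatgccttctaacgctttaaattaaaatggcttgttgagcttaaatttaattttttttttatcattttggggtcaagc
Dref/RpL13, chr2L:9967230-9967312, plus strand: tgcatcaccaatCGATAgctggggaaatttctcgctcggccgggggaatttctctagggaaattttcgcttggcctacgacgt
eIF3a/CG1074, chr3R:4433896-4433964, plus strand: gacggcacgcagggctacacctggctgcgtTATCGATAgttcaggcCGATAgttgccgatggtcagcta
Ripalpha/RpL7, chr2L:10200975-10201003, plus strand: cccactccgcggccAGTGTGACCgtttgg
The next 3 pairs were fully or almost fully covered in mock and nearly empty upon AGO2 KD.
PAPLA1/Rbsn-5, chr2L:8159639-8159831, plus strand: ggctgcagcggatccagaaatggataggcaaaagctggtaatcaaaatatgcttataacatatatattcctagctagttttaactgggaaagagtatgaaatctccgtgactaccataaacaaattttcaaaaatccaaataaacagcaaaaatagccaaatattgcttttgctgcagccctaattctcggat
Mitofilin/mRpL35, chr3R:22023336-22023526, plus strand: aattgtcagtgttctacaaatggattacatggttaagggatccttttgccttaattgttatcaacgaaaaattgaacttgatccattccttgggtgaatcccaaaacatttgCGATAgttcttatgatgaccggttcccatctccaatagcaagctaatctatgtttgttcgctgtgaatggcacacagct
Smyd5/Oga, chr3R:21218792-21219076, plus strand: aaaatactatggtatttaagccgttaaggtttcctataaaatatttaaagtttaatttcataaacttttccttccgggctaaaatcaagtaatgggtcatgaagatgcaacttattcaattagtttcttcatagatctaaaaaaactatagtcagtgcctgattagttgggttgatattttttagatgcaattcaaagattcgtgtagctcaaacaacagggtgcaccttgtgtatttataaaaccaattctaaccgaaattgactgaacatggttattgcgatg
The last 2 pairs had more coverage upon LaminB KD than in mock.
l(2)37Bb/Rpn3, chr2L:19051613-19051789, plus strand: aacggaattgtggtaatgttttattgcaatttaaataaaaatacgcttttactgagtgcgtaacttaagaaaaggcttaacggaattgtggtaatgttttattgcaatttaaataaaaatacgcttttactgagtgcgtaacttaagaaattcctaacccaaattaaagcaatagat
CG33107/CG6937, chr3R:22584719-22584772, plus strand: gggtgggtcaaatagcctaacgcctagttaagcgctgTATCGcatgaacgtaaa
The stretch between l(2)37Bb and Rpn3 holds 1 exact repeat of 72 bp, whereas the median longest repeat over 1014 pairs was 8 bp and only 2 pairs had a repeat above 50 bp. Reads that map to more than 1 place were removed by the authors, and what this repeat does to the calls was not tested.

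The measurements are lists of S2-enriched regions that the authors called with MACS2 in each IP library, so the value of a library is the share of bases that lie inside a called region. The lists held 7795 and 7957 regions in mock, 4122 and 6534 upon AGO2 KD, and 7309 and 7122 upon LaminB KD. No read counts are given, so the depth of each library is unknown, and fewer cells with Pol II at a promoter cannot be told apart from less Pol II in each cell. For regions with a fold enrichment between 3 and 3.5 the certainty of the call, as median −log10 p, stood at 14.7 and 14.5 for mock, 4.11 and 6.49 upon AGO2 KD, and 9.87 and 11.6 upon LaminB KD. A region of like strength was therefore called with the least certainty in the AGO2 KD libraries, and the part of this in the results below was not tested. With 2 libraries against 2, the exact permutation test cannot give a p under 0.333, so no difference between groups can pass a threshold of 0.05. Of 10 hemocyte markers, 7 or 8 had some bases of the gene in a called region in each list, among them *srp* and *Pxn*, while *NimC1* and *Sr-CI* had none. Counted by a covered side, as defined below, only 3 and 4 of the 10 were covered in mock. These counts were 2 and 3 upon AGO2 KD and 3 and 3 upon LaminB KD, and *srp* was covered in no list. Of the other cell types listed, *elav* (neuron), *Mef2* (muscle) and *vas* (germ line) were touched in every list, and 0 of 3 fat body markers were. *brp* (neuron) was touched in some lists and *wupA* (muscle) in LaminB KD replicate 2. *elav* had a covered side in every list, and *Mef2* in all but AGO2 KD replicate 1. *Lam* is itself a divergent gene, and its side was covered by 100.0% in each of the 6 libraries. *AGO2* is not in a pair, and its side was covered by 54.0 and 52.1% in mock, 30.4 and 54.9% upon AGO2 KD and 54.3 and 54.5% upon LaminB KD. RNA interference acts on the transcript, so Pol II coverage does not check the knockdown.

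S2 regions covered more than every other base of the divergent windows in mock cells, and a smaller share upon depletion of AGO2. The covered share of all windows was 59.7 and 59.9% in the mock libraries, 21.2 and 42.7% upon AGO2 KD, and 54.7 and 56.0% upon LaminB KD. Both AGO2 KD libraries lay below all others, and AGO2 KD replicate 1 lay far below replicate 2. The mean was 31.9% ± 15.2 (SD, n = 2) in AGO2 KD against 59.8% ± 0.159 in mock, a difference of −27.8 percentage points (two-sided exact permutation test, p = 0.333). The difference was −17.1 points when AGO2 KD replicate 1 was left out and −38.6 points when replicate 2 was left out. LaminB KD was −4.42 points from mock, again with no overlap (55.4% ± 0.919, exact permutation test, p = 0.333). AGO2 KD and LaminB KD differed by −23.4 points (exact permutation test, p = 0.333), and by −12.7 or −34.2 points without AGO2 KD replicate 1 or 2. These means and all counts of pairs include the 42 pairs of the histone repeat, the tandem array of *His* genes, whose near-identical copies were covered by 0 bases in every list.

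The stretch between the 5′ ends, which lies outside both gene models, was covered at a level close to that of the sides in mock and above it upon AGO2 KD. It was covered by 63.5 and 60.8% in mock, 28.3 and 50.1% upon AGO2 KD, and 56.1 and 57.6% upon LaminB KD. The sides themselves were covered by 59.2 and 59.8% in mock, 20.4 and 41.8% upon AGO2 KD, and 54.6 and 55.8% upon LaminB KD. Of the mock mean, AGO2 KD libraries held 45.6 and 80.7% between the 5′ ends and 34.2 and 70.2% on the sides. With the histone repeat left out, unlike in the shares above, the highest coverage lay 100 to 150 bp inside the gene in all 6 libraries. It stood at 71.8 and 70.7% of starts in mock and 37.9 and 60.8% upon AGO2 KD.

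**Figure D1:**
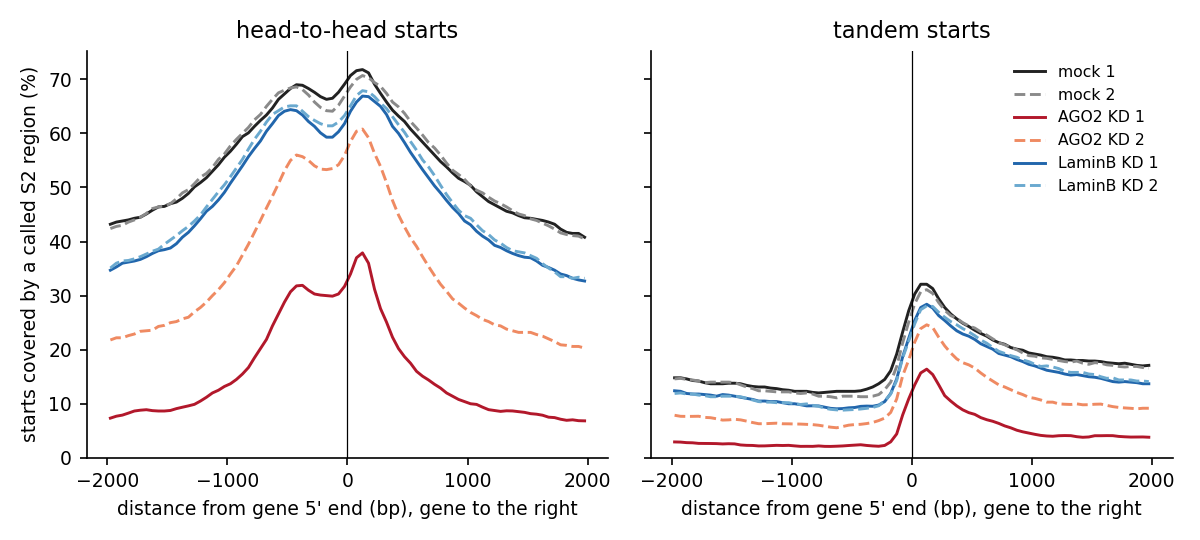
Share of gene starts covered by a called S2 region in 50 bp bins, against the distance from the gene 5′ end with the gene to the right, for 2028 head-to-head starts without the histone repeat (left) and 3070 tandem starts (right). Each line is 1 library, and around head-to-head starts the coverage stays high upstream, where the partner gene begins.

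Most divergent promoters carried S2 regions on both sides in mock cells, and fewer did upon AGO2 KD. A side was counted as covered when at least 250 bp of it lay in called regions. Both sides were covered in 589 and 606 of the 1056 pairs in mock, 138 and 410 upon AGO2 KD, and 554 and 570 upon LaminB KD. Only 1 side was covered in 264 and 257 pairs in mock, 329 and 341 upon AGO2 KD, and 281 and 267 upon LaminB KD. Neither side was covered in 203 and 193 pairs in mock, 589 and 305 upon AGO2 KD, and 221 and 219 upon LaminB KD. The AGO2 KD libraries thus had fewer pairs with both sides and more pairs with 1 side than any other library. Among pairs with any covered side, 1-sided pairs made up 30.4% ± 0.827 in mock, 57.9% ± 17.7 upon AGO2 KD and 32.8% ± 1.24 upon LaminB KD (SD, n = 2 libraries each). The share of pairs with both sides covered differed by −30.6 points between AGO2 KD and mock and by −3.36 points between LaminB KD and mock (exact permutation tests, p = 0.333 for each, groups not overlapping). The AGO2 KD difference was −17.8 points without AGO2 KD replicate 1 and −43.5 points without replicate 2.

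**Figure D2:**
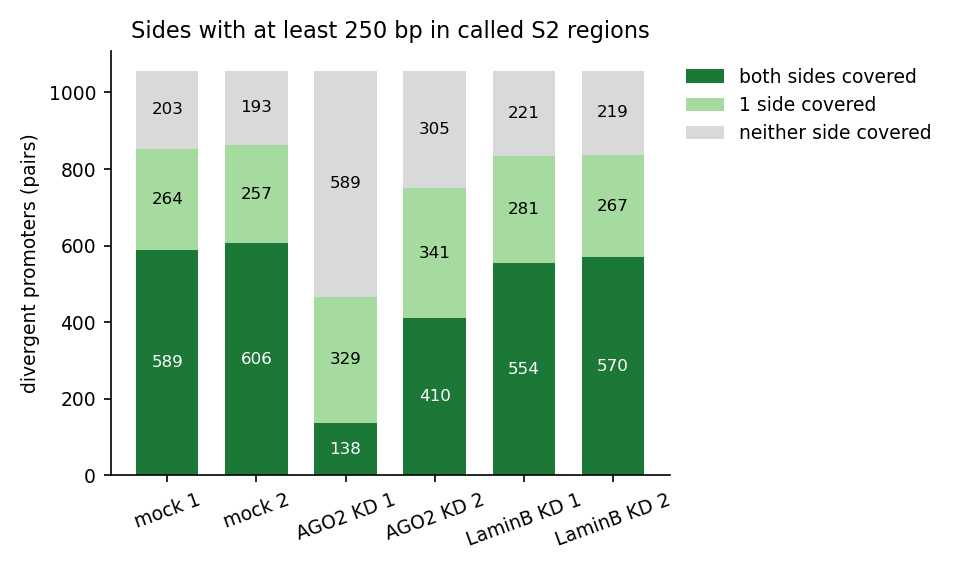
Number of the 1056 divergent promoters in which both sides, 1 side or neither side had at least 250 bp in called S2 regions, as stacked bars for each library. The dark bar is shortest in AGO2 KD replicate 1, at 138 pairs, and next shortest in AGO2 KD replicate 2, at 410 pairs.

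A single region often ran across the whole promoter. A region was called spanning when it covered every base between the 5′ ends and at least 100 bp of each side. There were 626 and 613 pairs with a spanning region in mock, 258 and 496 upon AGO2 KD, and 560 and 582 upon LaminB KD. Of the pairs touched by any region, this was 70.0% ± 1.32 in mock, 51.3% ± 12.5 upon AGO2 KD and 65.7% ± 1.52 upon LaminB KD (SD, n = 2 libraries). AGO2 KD lay −18.7 points and LaminB KD −4.30 points from mock, without overlap (exact permutation tests, p = 0.333 for each). Leaving out AGO2 KD replicate 1 gave −9.85 points and leaving out replicate 2 gave −27.5 points for AGO2 KD. The regions over these promoters were long, with a median width of 3180 and 3166 bp in mock, 978 and 1756 bp upon AGO2 KD, and 2628 and 2685 bp upon LaminB KD. Regions over tandem starts had medians of 1299 and 1292 bp in mock, 416 and 842 bp upon AGO2 KD, and 1136 and 1232 bp upon LaminB KD. By fold enrichment the divergent regions ranked lower than those over tandem starts within each list, with a median percentile of 50.9 to 64.9 against 66.5 to 73.1.

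Pairs that had both sides covered in both mock libraries were followed into the knockdowns. Of these 560 pairs, AGO2 KD replicate 1 had both sides covered in 137, 1 side in 236 and neither in 187, and replicate 2 had 397, 137 and 26. LaminB KD replicate 1 had 513, 46 and 1, and replicate 2 had 525, 32 and 3. In AGO2 KD the loss of coverage from such a pair was therefore more often on 1 side than on both. Another 209 pairs had the same 1 side covered in both mock libraries. That side was the only one covered in 73 and 154 of them upon AGO2 KD and in 182 and 183 upon LaminB KD, and in 0 pairs of any knockdown library was the opposite side covered alone. The 1-sided state also held the same orientation between replicates, in 209 of the 212 pairs that were 1-sided in both mock libraries, 148 of 150 upon AGO2 KD and 216 of 218 upon LaminB KD. A further 186 pairs had no covered side in either mock library, among them the 42 pairs of the histone repeat. Of these 186, 0 and 1 had a covered side upon AGO2 KD and 2 and 4 upon LaminB KD. Pairs whose state differed between the mock libraries were not followed.

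With all regions, the size of the imbalance within pairs did not separate AGO2 KD from mock. Over the pairs with a covered side in any library, the mean absolute difference between the sides was 36.9 and 36.4 points in mock, 26.9 and 39.1 upon AGO2 KD, and 38.7 and 37.1 upon LaminB KD. The AGO2 KD values lay on either side of mock (exact permutation test, p = 1.00), and the LaminB KD values lay just above it (difference 1.24 points, exact permutation test, p = 0.333). AGO2 KD differed from mock by −3.70 points. With the top-scoring 50% of regions in each list the difference was −10.2 points, without overlap (exact permutation test, p = 0.333). Its sign turned with 500 bp sides. The longer gene of a pair had −2.60 ± 0.0853 points of coverage relative to the shorter gene in mock, −2.86 ± 0.689 upon LaminB KD and 0.417 ± 0.421 upon AGO2 KD (SD, n = 2 libraries). AGO2 KD exceeded mock by 3.02 points (exact permutation test, p = 0.333). Over the 6 libraries the longer gene lay −1.68 points from the shorter gene on average, above it in 2 of 6 (exact sign-flip test, p = 0.125), and with 500 bp sides its mean turned to 1.43 points (p = 0.0312). The pairs that went from both sides to 1 side kept the longer gene's side in 136 of 236 and 82 of 137 cases upon AGO2 KD, and in 20 of 46 and 11 of 32 upon LaminB KD. As a control of the measure, the 2 strands were compared. The plus-strand side exceeded the minus-strand side by a mean of 0.708 points, with the same sign in 6 of 6 libraries (exact sign-flip test, p = 0.0312). This p is reached whenever all 6 libraries share a sign, however small the difference. The libraries also share the same genes, so it measures no spread over genes.

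Divergent starts were covered more than tandem starts in every library. Tandem starts were the 3070 starts on the same arms whose next upstream gene lies on the same strand, with no opposite 5′ end within 2000 bp and no other gene over the start. Their first 1000 bp were covered by 24.9 and 24.5% in mock, 9.25 and 17.3% upon AGO2 KD, and 22.4 and 22.8% upon LaminB KD. Divergent sides exceeded them by 11.1 to 35.3 points, with a mean of 28.4 points and the same sign in 6 of 6 libraries (exact sign-flip test over libraries, p = 0.0312, the smallest it can give). They also exceeded the sides of 473 head-to-head pairs with 5′ ends over 500 and up to 2000 bp apart, by a mean of 18.7 points in 6 of 6 libraries (exact sign-flip test, p = 0.0312). As for the strand control, each p rests only on a sign shared by libraries over the same genes. At the limit itself, the 68 pairs at 451 to 500 bp had side coverage of 59.4 and 60.5% in mock, and the 46 pairs at 504 to 549 bp had 57.9 and 56.0%. In the knockdowns the pairs inside the limit had the lower values, at 20.6 and 42.5% against 21.6 and 43.6% upon AGO2 KD and 54.8 and 56.0% against 56.3 and 56.7% upon LaminB KD. With the histone repeat left out, 64.9 and 64.7% of the 1000 bp upstream of divergent starts were covered in mock, against 14.3 and 13.1% for tandem starts. Upstream of a divergent start lies mostly the side of the partner gene, so this contrast follows in part from how the pairs were defined.

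The share of this coverage found in the knockdowns was close for divergent and tandem starts. Relative to the mock mean, divergent sides held 34.2 and 70.2% in the AGO2 KD libraries and tandem sides held 37.4 and 69.9%. In LaminB KD, divergent sides held 91.7 and 93.8% and tandem sides 90.8 and 92.4%. Head-to-head pairs farther apart held 45.2 and 75.8% upon AGO2 KD. In points, the excess of divergent over tandem sides was 34.8 ± 0.647 in mock, 17.8 ± 9.47 upon AGO2 KD and 32.6 ± 0.621 upon LaminB KD (SD, n = 2 libraries). AGO2 KD differed from mock by −17.0 points and LaminB KD by −2.22 points (exact permutation tests, p = 0.333 for each), and the AGO2 KD value was −10.3 points without its replicate 1 and −23.7 points without its replicate 2.

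The share of pairs with both sides covered was largest for the closest pairs in mock, but did not follow distance step by step. With the histone repeat left out, both sides were covered in 66.5 and 67.0% of the 185 pairs up to 100 bp apart in mock, and in 54.0 and 55.6% of the 363 pairs over 300 bp apart. The same shares were 13.5 and 44.3% against 12.7 and 36.4% upon AGO2 KD, and 60.0 and 64.3% against 50.1 and 51.2% upon LaminB KD. In every library the closest pairs had a larger share than the widest. The 174 pairs over 100 and up to 200 bp apart had 51.7 and 51.7% in mock, below the 292 pairs of the next class, so the order was not graded. Those 292 pairs lay above the closest pairs upon AGO2 KD (15.4 and 45.2%) and in LaminB KD replicate 1 (60.6%). They lay below the closest pairs in mock and in LaminB KD replicate 2. The stretch between the 5′ ends was covered by 84.2 and 81.8% in mock in the closest pairs and by 63.0 and 59.4% in the widest.

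**Figure D3:**
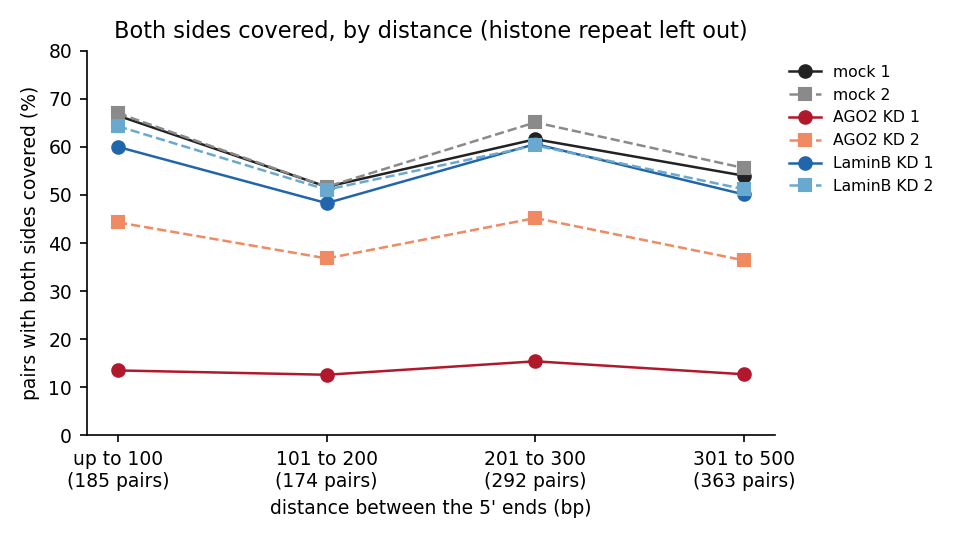
Percent of pairs with both sides covered in each class of distance between the 5′ ends, with 1 line per library and the histone repeat left out. The AGO2 KD lines lie below the others in all 4 classes, and no library shows a steady trend with distance.

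With all regions, calls on single gene sides gave many lower sides upon AGO2 KD and no higher ones. A side was called lower when both libraries of the knockdown lay at least 25 percentage points below both control libraries, and higher in the reverse case. In AGO2 KD against mock, 487 of the 2112 divergent sides (23.1%) were lower, beside 12.9% of all 13968 starts in the genome, and 0 were higher, beside 0%. A lower call needs coverage in mock to begin with. Among starts with at least 250 bp covered in both mock libraries, 34.7% of 1403 divergent sides were lower against 32.1% of 5627 starts in all, a share close to the background. The median difference over sides with any coverage was −34.4 points for divergent sides and −28.0 points over all starts. Without AGO2 KD replicate 2 the number of lower sides was 1038, and without replicate 1 it was 491. By pair, 351 pairs had 1 lower side and 68 had both, and 637 had none. A side with at least 1 bp in both mock libraries and 0 bp in both AGO2 KD libraries was called lost, and gained in the reverse case. There were 168 lost sides (7.95%), beside 6.23% of all starts, and 0 gained, beside 0%. Among starts covered in mock the order of the lost shares turned, at 7.27% of divergent sides, 8.65% of all starts and 11.3% of tandem starts. With lists cut to equal length, 330 divergent sides were lower, 8 higher, 139 lost and 36 gained. The share of all starts was not computed for these cut lists.

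Few sides differed upon LaminB KD, in a comparison that shares the mock libraries with the one above. In LaminB KD against mock, 60 divergent sides (2.84%) were lower, beside 1.53% of all starts, and 5 were higher (0.237%), beside 0.15%. There were 32 lost sides (1.52%) beside 1.05%, and 0 gained sides beside 0.0644%. Among starts covered in mock, 4.28% of divergent sides and 3.8% of all starts were lower, and 0.784 and 0.942% were lost, so these shares were close to the background. Of the pairs, 54 had 1 lower side and 3 had both. The median difference over divergent sides with any coverage was 0 points. In AGO2 KD against LaminB KD, which shares the AGO2 KD libraries with the first comparison, 368 sides (17.4%) were lower beside 9.38%, and 0 were higher beside 0%. Among starts covered in both LaminB KD libraries, 27.5% of divergent sides and 24.8% of all starts were lower.

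Genes of the cytoplasmic ribosome were covered on nearly every side in all libraries. The genes opposite them were covered less often upon AGO2 KD, as were divergent sides in general. The list held 24 pairs with 1 ribosomal protein gene (or *Rack1*, a ribosome-bound scaffold), and 23 of the 24 list sides were covered in all 6 libraries. The partner sides were covered in 22 and 21 pairs in mock, 11 and 18 upon AGO2 KD, and 20 and 21 upon LaminB KD. The mean level of the list sides was 94.8 and 94.8% in mock and 85.7 and 93.2% upon AGO2 KD. The list side exceeded the partner side by 11.1 and 11.9 points in mock, 50.3 and 29.8 upon AGO2 KD, and 17.4 and 16.7 upon LaminB KD. The groups did not overlap, and the AGO2 KD mean was 28.6 points above mock (40.1 ± 14.5 against 11.5 ± 0.548, SD, n = 2 libraries). By the 25-point rule, 0 list sides and 7 partner sides were lower upon AGO2 KD. Counts of lower sides here and in the lists that follow stand beside 12.9% of all starts and 32.1% of the starts covered in mock. The median difference of the list sides was 0 points, beside −28.0 points over all starts with any coverage. In mock, 20 and 20 of the 24 list sides were fully covered, and such a side can lose signal without a change in covered share. No test of a list is given, because the lists were chosen with results of these data known. At *Dref/RpL13*, where *Dref* encodes the factor that binds the DRE and *RpL13* a large-subunit protein, the *RpL13* side was covered by 100.0% in all 6 libraries and the *Dref* side by 55.4% in AGO2 KD replicate 1 and 100.0% elsewhere. *Ripalpha/RpL7* has 5′ ends 30 bp apart. Here *RpL7* was at 100.0% in every library and *Ripalpha*, whose product interacts with replication protein A, at 38.2 and 14.6% in mock, 10.6 and 14.4% upon AGO2 KD and 16.5 and 17.3% upon LaminB KD. At *RpS27/Nup37* (window chr3R:25246515-25248657) the *RpS27* side was at 100.0% throughout, and the side of the nucleoporin gene *Nup37* was at 100.0% in mock and LaminB KD but 0.0 and 68.6% upon AGO2 KD.

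Proteasome genes, which encode the subunits of the protein-degrading complex, were also covered in every library for all but 1 gene, and their excess over the partners in mock was smaller. No difference between gene lists was tested. Of 11 list sides, 10 were covered in all 6 libraries, and partner sides were covered in 10 and 10 pairs in mock, 5 and 9 upon AGO2 KD, and 10 and 10 upon LaminB KD. The list side exceeded the partner side by 1.91 and 1.99 points in mock, 53.6 and 28.2 upon AGO2 KD, and 2.90 and 7.35 upon LaminB KD. The AGO2 KD mean was 38.9 points above mock without overlap, with 0 list sides and 6 partner sides lower by 25 points. At *RanBP3/Rpt5* (window chr3R:23751835-23753875), the side of the base ATPase *Rpt5* was at 100.0% in all libraries and that of *RanBP3*, a nuclear export cofactor, at 12.1% in AGO2 KD replicate 1 and 100.0% elsewhere. At *Hat1/Rpn5* (window chr3R:5788385-5790492) both sides were at 100.0% in 5 libraries. In AGO2 KD replicate 1 the side of the histone acetyltransferase gene *Hat1* was at 0.0% and that of the lid subunit *Rpn5* at 63.4%. At *Rpt2/CG13599* (window chr3R:23930559-23932638) only the *Rpt2* side was covered, at 85.4 to 91.7%, and *CG13599* was at 0.0% in all 6 libraries. Among 5 chaperone pairs, the list sides were covered in 5 and 5 pairs in mock and 4 and 5 upon AGO2 KD, and partner sides in 4 and 4 against 0 and 4. The chaperonin gene *CCT1* was at 100.0% in every library opposite *tHMG1* at 0.0%.

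Mitochondrial ribosomal protein genes, which serve translation inside the organelle, had fewer covered sides upon AGO2 KD, and their excess over the partner was smaller than in mock. Of 35 sides of mitochondrial ribosomal protein genes, 35 and 34 were covered in mock, 14 and 26 upon AGO2 KD, and 34 and 34 upon LaminB KD, and 17 were lower by 25 points upon AGO2 KD. Their partners were covered in 29 and 28, 11 and 25, and 26 and 28 pairs in the same order, and 8 were lower. The excess of the list side over the partner was 21.6 and 16.4 points in mock and 1.89 and 5.69 upon AGO2 KD (difference −15.2 points). The median difference of the list sides between AGO2 KD and mock was −50.0 points. At *mRpL23/CG9004* the *mRpL23* side was at 100.0% in 5 libraries and 0.0% in AGO2 KD replicate 1. At *CG2021/mRpL46* (window chr3L:1776412-1778438) the *mRpL46* side was at 82.5 and 100.0% in mock, 0.0 and 0.0% upon AGO2 KD, and 79.2 and 83.2% upon LaminB KD, so the AGO2 KD libraries lay below all others. For 23 genes of the respiratory chain and ATP synthase, 20 and 21 list sides were covered in mock, 12 and 20 upon AGO2 KD, and 20 and 20 upon LaminB KD. Their excess over the partner was 20.2 and 17.7 points in mock and 22.8 and 23.5 upon AGO2 KD, with 4 list sides and 6 partner sides lower. At *CycC/UQCR-C1* (window chr3R:14889206-14891230) the side of *UQCR-C1*, a subunit of complex III, was at 100.0% in all libraries, and that of *CycC*, the cyclin of the Mediator kinase module, at 89.7 and 75.0% in mock, 15.1 and 65.5% upon AGO2 KD and 58.1 and 73.0% upon LaminB KD. The *msl-2* side, a dosage compensation gene whose protein is made in males, was at 35.0 and 39.5% in mock, 0.0 and 9.9% upon AGO2 KD and 8.9 and 38.4% upon LaminB KD, opposite the complex I gene *ND-PDSW*.

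**Figure D4:**
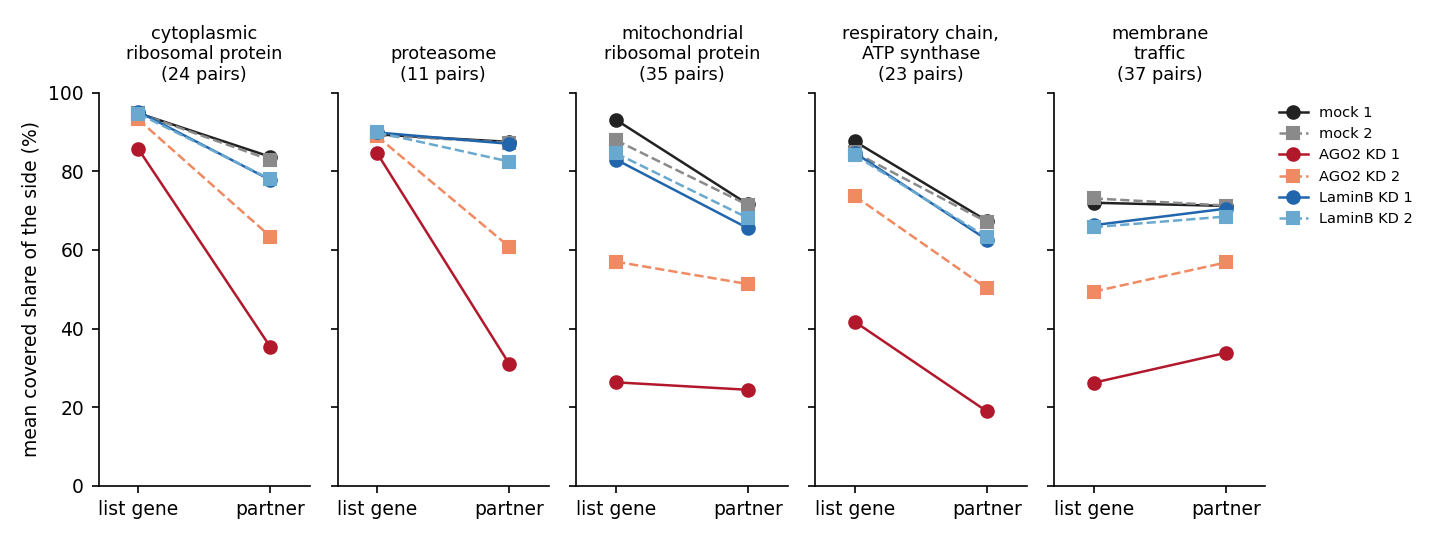
Mean covered percent of the list gene's side and of its partner's side in 5 of the gene lists, with 1 line per library. In the cytoplasmic ribosomal protein and proteasome lists the lines of AGO2 KD drop from list gene to partner, from 85.7 to 35.3% and from 84.6 to 31.0% in replicate 1.

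Most other lists had fewer covered sides upon AGO2 KD as well. Their counts of lower sides stand beside 12.9% of all starts and 32.1% of the starts covered in mock. Of 34 sides of polymerase, Mediator, TFIID and Integrator genes, 32 and 32 were covered in mock, 10 and 24 upon AGO2 KD, and 30 and 31 upon LaminB KD, with 14 lower by 25 points upon AGO2 KD. The paralogous TFIID genes *Taf10b* and *Taf10* face each other 45 bp apart. The *Taf10* side, which runs past the gene, was covered by 100.0 and 100.0% in mock, 0.0 and 44.9% upon AGO2 KD, and 100.0 and 91.6% upon LaminB KD. Of 39 membrane traffic sides, 30 and 32 were covered in mock and 14 and 24 upon AGO2 KD, with 15 lower. Splicing genes had 14 and 14 of 14 sides covered in mock and 6 and 12 upon AGO2 KD, with 3 lower, and replication and repair genes 11 and 13 of 16 against 4 and 10, with 7 lower. Nucleoporin genes had 6 and 6 of 6 sides covered in mock and 1 and 4 upon AGO2 KD, with 3 lower. For translation factors and aminoacyl-tRNA synthetases these values were 19 and 19 of 21 against 12 and 17, with 2 lower, and 9 of their partner sides were lower. In each of these lists the AGO2 KD libraries lay at or below every other library in covered sides. *eIF3a*, a scaffold subunit of an initiation factor, was at 100.0% in all libraries, and its partner *CG1074* at 13.9 to 22.6%. The 25-point rule called 0 sides of these lists higher upon AGO2 KD. For 7 sides of chemoreceptor and odorant binding genes, 0 were covered in any library, while 3 and 3 of their partners were covered in mock, 0 and 3 upon AGO2 KD and 3 and 3 upon LaminB KD. At *Gr63a/Lamtor4* (window chr3L:3895604-3897899) the side of *Gr63a*, a carbon dioxide receptor of olfactory neurons, was at 0.0% in all libraries opposite *Lamtor4*, a part of the lysosomal Ragulator, at 80.4 and 77.6% in mock, 0.0 and 45.6% upon AGO2 KD and 75.7 and 69.9% upon LaminB KD. Of 3 cuticle gene sides, 1 was covered in mock.

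Individual promoters named next were selected by their values, so these are descriptions without a test. The windows of *U2af38/Stip1*, *Hel25E/Lam*, *Rack1/mts*, *CG13392/Rcd4* and *Prosbeta4/Nubp1* were covered by 100.0% in all 6 libraries. The first of them lies at chr2L:293682-296121 and the third at chr2L:7826316-7828649. They encode, among others, the small subunit of the splicing factor U2AF, the RNA helicase Hel25E of splicing and mRNA export, LaminB itself, the catalytic subunit of protein phosphatase 2A (*mts*) and a core proteasome subunit. The pairs with the widest gap between AGO2 KD and mock were at or near full coverage in mock and almost empty upon AGO2 KD. *PAPLA1/Rbsn-5*, a phospholipase gene opposite an endosomal Rab effector, was covered by 100.0 and 100.0% in mock, 11.4 and 7.43% upon AGO2 KD, and 20.4 and 55.1% upon LaminB KD. *Mitofilin/mRpL35*, the gene of a cristae-organising protein opposite a mitochondrial ribosomal protein gene, was covered by 100.0 and 100.0% in mock, 8.53 and 15.6% upon AGO2 KD, and 100.0 and 100.0% upon LaminB KD. *Smyd5/Oga*, where *Oga* encodes the enzyme that removes O-GlcNAc from proteins, was covered by 100.0 and 99.8% in mock, 0.0 and 17.8% upon AGO2 KD, and 100.0 and 100.0% upon LaminB KD. AGO2 KD thus lay below both other groups at these pairs. LaminB KD overlapped mock at *Mitofilin/mRpL35* and *Smyd5/Oga* and lay below it at *PAPLA1/Rbsn-5*. *CG15525/CG11504* was at 0.0 and 12.7% in AGO2 KD against 100.0 and 100.0% in mock, *CG6425/Yif1* at 10.1 and 16.6% against 100.0 and 100.0%, and *CG9386/BckdhA* at 0.0 and 9.68% against 100.0 and 88.6%. In the same order LaminB KD was at 55.3 and 100.0%, 75.5 and 71.7%, and 42.5 and 63.4%. It therefore lay below mock at *CG6425/Yif1* and *CG9386/BckdhA* as well. *CG9467/CG8526* was at 100.0 and 98.7% in mock, 0.0 and 21.1% upon AGO2 KD and 98.0 and 94.7% upon LaminB KD. The direction turned where lists were cut to equal length, with AGO2 KD above mock by 4.27 points at *Mitofilin/mRpL35* and by 6.37 points at *CG15525/CG11504*. In those lists *Smyd5/Oga* differed by 0 points from mock and from LaminB KD, *CG6425/Yif1* by −36.7 points from mock, against −86.7 points with all regions, and AGO2 KD was above LaminB KD by 10.6 points at *CG9467/CG8526*. In the top-scoring 50% of each list the difference from mock was −50.0 points at *Mitofilin/mRpL35* and −41.0 points at *Smyd5/Oga*, and AGO2 KD was above LaminB KD by 8.91 points at *Smyd5/Oga*.

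Beside *PAPLA1/Rbsn-5*, the widest margins of LaminB KD below mock were at *Aduk/pasi2*, *Myo31DF/CG6094* and *MtnE/MtnD*. *Aduk/pasi2* (window chr3R:9333715-9336169), where *Aduk* encodes a kinase related to Unc-51, was covered by 91.2 and 91.2% in mock, 36.6 and 42.9% upon LaminB KD, and 0.0 and 36.8% upon AGO2 KD. *Myo31DF/CG6094* (window chr2L:10505780-10508080) differed mainly on its *CG6094* side, which was at 100.0 and 100.0% in mock and at 0.0% in all 4 knockdown libraries. The side of *Myo31DF*, an unconventional myosin, was at 75.8 and 73.4% in mock, 36.1 and 70.7% upon AGO2 KD, and 68.0 and 77.3% upon LaminB KD. The metallothionein genes *MtnE* and *MtnD* face each other (window chr3R:20533705-20535961), and their window was covered by 85.6 and 82.5% in mock, 28.0 and 39.3% upon LaminB KD, and 22.3 and 30.3% upon AGO2 KD. In all 3 pairs the knockdown groups overlapped each other and lay below mock. At *Aduk/pasi2* the difference between LaminB KD and mock was −51.4 points with all regions and 0 points when only the better-scoring 50% of every list was used.

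In 3 pairs LaminB KD lay above mock by the widest margins, and in each of them AGO2 KD lay below mock. *l(2)37Bb/Rpn3*, where *Rpn3* encodes a lid subunit of the proteasome, was covered by 71.1 and 70.9% in mock, 100.0 and 100.0% upon LaminB KD, and 38.1 and 40.6% upon AGO2 KD. The difference lay mainly on the *l(2)37Bb* side, at 62.7 and 63.4% in mock, 100.0 and 100.0% upon LaminB KD and 0.0 and 0.0% upon AGO2 KD. *CG33107/CG6937* was covered by 53.8 and 52.3% in mock, 78.1 and 100.0% upon LaminB KD, and 9.06 and 18.3% upon AGO2 KD. In the top-scoring 50% of each list, its LaminB KD value was −3.07 points from mock. *CG10222/flr* (window chr3L:13411454-13413842), where *flr* encodes an actin-interacting protein, was covered by 65.7 and 71.0% in mock, 93.8 and 91.2% upon LaminB KD, and 42.5 and 62.5% upon AGO2 KD, with the *flr* side at 100.0% throughout. In window coverage, 0 of the 1056 pairs had the AGO2 KD libraries higher than each mock library.

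The 5 promoters named for 1-sided coverage in mock are ties at 100.0 against 0.0%, taken in order along 2L, and others, such as *CCT1/tHMG1*, are as 1-sided. At *CG3104/RpS21* (window chr2L:2854779-2857069) the *RpS21* side was at 100.0% in all 6 libraries, and the *CG3104* side at 15.7% in AGO2 KD replicate 2 and 0.0% elsewhere. At *lectin-22C/Su(dx)* (window chr2L:2036266-2038713) the side of *Su(dx)*, a ubiquitin ligase of the Notch pathway, was at 83.7 to 100.0% and *lectin-22C* at 0.0% in all libraries. At *CG9150/Pfdn1* the prefoldin gene *Pfdn1* was at 92.2 to 100.0% with *CG9150* at 0.0%. *CG11885* was at 100.0% and *CG13692* at 0.0% in all libraries. At *uncNacbeta/CG2794* (window chr2L:562820-565162) the *uncNacbeta* side was at 0.0% in all libraries and *CG2794* at 100.0 and 100.0% in mock, 0.0 and 17.8% upon AGO2 KD and 43.4 and 100.0% upon LaminB KD.

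**Figure D5:**
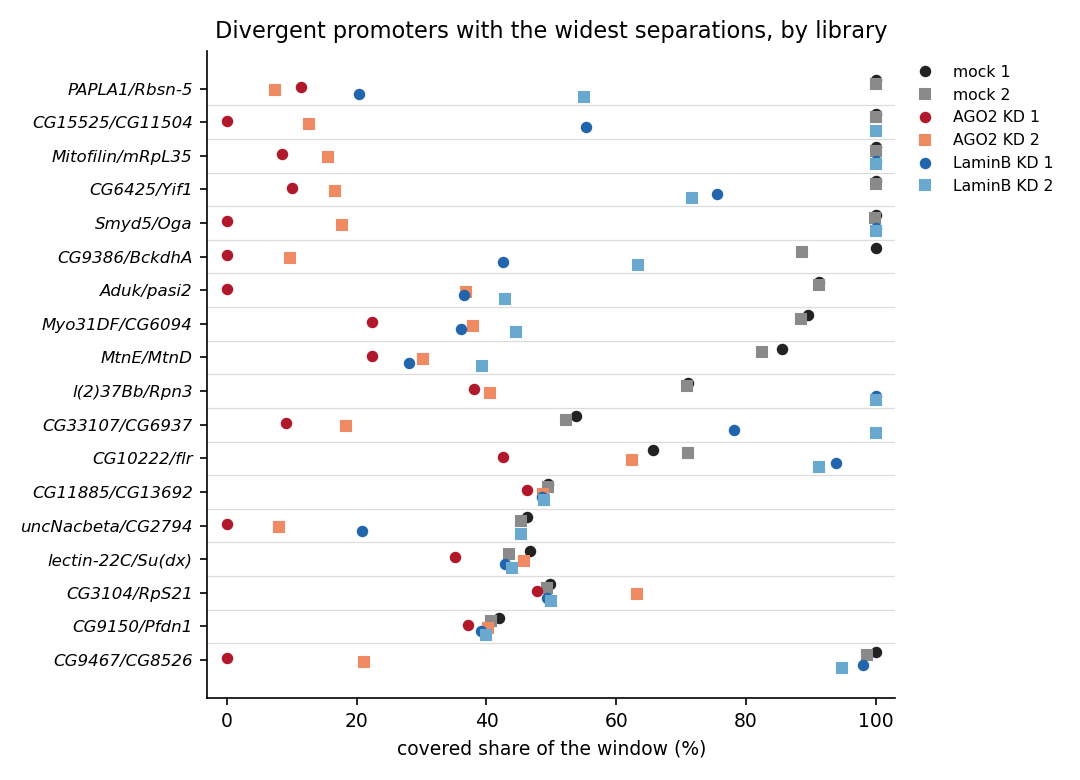
Covered percent of the window in each of the 6 libraries for the divergent promoters with the widest separations between groups or between sides, with 1 point per library. In the upper rows the mock points lie at the right edge and the AGO2 KD points at the left, and at *l(2)37Bb/Rpn3* the LaminB KD points lie at 100.0%.

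The sequence of these promoters was described by 7 short motifs, searched on both strands in the 300 bases from 250 before to 50 after each start. Starts of pairs less than 300 bp apart share part of this sequence, so their counts are not independent. The DRE letters TATCGATA were found at 16.8% of divergent starts, 6.19% of tandem starts and 9.36% of 13945 starts in all. The Motif 1 core GGTCACACT was found at 12.6, 3.75 and 6.05% in the same order, CGATA at 60.1, 41.3 and 47.4%, and CAGCTG at 25.4, 16.2 and 17.7%. TATAAA was found at 49.6, 46.2 and 45.8%, GAGAG at 21.1, 32.9 and 29.7%, and TCAGT, the initiator core, at 45.8, 53.9 and 51.5%. Among starts covered in both mock libraries the DRE shares were 19.7% for divergent, 17.0% for tandem and 18.1% for all starts. By the DRE, divergent starts thus stood closer to other covered starts than to all starts. For CAGCTG the shares among covered starts were 25.2, 18.4 and 21.4% in the same order. The DRE lay between the 5′ ends of 164 of 1014 pairs, as in *Hel25E/Lam* and *eIF3a/CG1074* above. Their windows were covered by a mean of 70.7 and 71.7% in mock, 28.5 and 52.7% upon AGO2 KD, and 65.9 and 66.5% upon LaminB KD. The 850 pairs without it had 60.5 and 60.7%, 20.8 and 42.8%, and 55.3 and 56.8% in the same order. Windows with the DRE had the higher mean in each of the 6 libraries, and the pairs with it were also wider apart, at a median of 274.5 against 251.0 bp. The 58 pairs with the Motif 1 core between their 5′ ends, *Ripalpha/RpL7* among them, had means of 74.5 and 76.0% in mock, 29.5 and 54.5% upon AGO2 KD and 69.0 and 68.6% upon LaminB KD. Pairs with CGATA, which also lies inside the DRE, had the higher mean in each of the 6 libraries, at 65.5 and 66.1% against 57.6 and 57.6% in mock. For TATAAA and GAGAG the direction varied between libraries. Only TCAGT and CAGCTG went the other way in each of the 6 libraries. Pairs with TCAGT had 56.3 and 56.0% in mock against 65.3 and 65.8% without it. Pairs with CAGCTG had 58.7 and 59.7% in mock against 62.8 and 63.0% without it.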

How the data were processed

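The members, gene lists and tests were chosen with earlier results of these data known. Per the methods of the study, reads were trimmed, aligned to dm6 with bowtie2, filtered at a mapping quality of 20 and freed of PCR duplicates, and broad regions were called with MACS2 separately for each replicate. The submitters' processing notes name cutadapt 1.10, Picard 2.11.0 and MACS2 2.1.1.20160309. Which of the 6 inputs entered each call is not given in the sources used here, and the inputs were not analysed here. Each list deposited by the authors has 9 columns, with the start counted from 0 (converted to 1). In the deposited lists, the score equals 10 times −log10 q cut to a whole number, with 1 exception. The authors' lists give, as averages over each region, the fold enrichment (a ratio of IP over expected pileup), −log10 p and −log10 q. These columns served only to rank or filter regions and to compare certainty at like fold. The lists hold no reads, so the read-based differential test of the study could not be run, and a call depends on the unknown depth of IP and input.

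Gene models came from Ensembl (dm6 coordinates), with no other protein-coding gene allowed to touch the bases between the 5′ ends, and sequence from RefSeq. Covered bases were computed with Python 3.11.15, numpy 2.4.6 and pandas 2.3.3, and figures with matplotlib 3.10.9. Groups of 2 libraries were compared by a two-sided exact permutation test and levels over 6 libraries by a two-sided exact sign-flip test, both over libraries. Code was tested on simulated regions and pairs. Alternatives varied the q threshold, the regions used, the side length, the coverage minimum, the margin, the pairs kept, the libraries kept and the replicate block. Named pairs were 5 of the highest in every library, the 6 and 4 with the widest margins of AGO2 KD and LaminB KD below mock, the 3 with LaminB KD above mock, 5 of the most 1-sided in mock, the 3 with AGO2 KD below LaminB KD, and up to 3 of the closest pairs of each gene list, of which the text gives a selection. Ties were taken in order of arm and position. No pair met the part of the rule on AGO2 KD above mock.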

Additional observations from a re-analysis of the deposited data

Results flagged for a closer look

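In 4 named pairs the knockdowns moved to opposite sides of mock, with every LaminB KD library above and every AGO2 KD library below both mock libraries. The difference between the 2 changes was not tested. LaminB KD minus mock exceeded AGO2 KD minus mock by 60.6 points of window coverage at *l(2)37Bb/Rpn3*, by 75.4 points at *CG33107/CG6937* and by 40.0 points at *CG10222/flr*, which were selected for LaminB KD above mock. At *Hsp67Bc/CG4456*, a small heat shock protein gene opposite *CG4456*, the gap was 48.8 points, with windows covered by 75.3 and 80.3% in mock, 84.8 and 86.5% in LaminB KD, and 0.0 and 73.8% in AGO2 KD, so AGO2 KD replicate 2 lay just under mock. Among the top-scoring 50% of regions in each list, LaminB KD lay −3.07 points from mock at *CG33107/CG6937*. Groups of 2 libraries are too small for a test of single outlying libraries.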

How the results depend on the processing

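The lists hold no reads, so what depth limits could not be measured, and with 2 libraries a group no difference could pass the test. Window coverage, both sides covered and spanning regions stayed lower than mock in both knockdowns under each alternative run, with window coverage of AGO2 KD from −30.6 to −19.2 points under the settings that kept all libraries. The cause of each change below was not tested. Calls are of divergent gene sides, with lower, higher, lost and gained as in the report. With the top-scoring 50% of each list, side imbalance in LaminB KD minus mock turned to −1.09 points, the AGO2 KD calls against mock came to 355 lost and 1 gained, the LaminB KD calls to 97 lower, 8 higher, 82 lost and 4 gained, and 1 side was higher in AGO2 KD than in LaminB KD. Window coverage then turned to 6.37 points at *CG15525/CG11504* (AGO2 KD minus mock), −3.07 points at *CG33107/CG6937* (LaminB KD minus mock), and 8.91 points at *Smyd5/Oga* and 10.6 points at *CG9467/CG8526* (AGO2 KD minus LaminB KD). With lists cut to equal length, side imbalance turned to 0.389 points (AGO2 KD minus mock) and the longer against the shorter gene to 0.0990 points (LaminB KD minus mock). The calls came to 8 higher and 36 gained in AGO2 KD, 26 higher and 21 gained in LaminB KD, and 8 higher in AGO2 KD than in LaminB KD. Window coverage turned to 6.37 points at *CG15525/CG11504* and 4.27 points at *Mitofilin/mRpL35* against mock, and to 4.27 points at *Mitofilin/mRpL35* and 10.6 points at *CG9467/CG8526* against LaminB KD. With 500 bp sides, the longer gene exceeded the shorter by 1.43 points, side imbalance turned to 4.23 points (AGO2 KD minus mock) and 2.84 points (AGO2 KD minus LaminB KD), and 8 sides were higher in LaminB KD. Without a margin, 1009 sides were lower and 1 higher in AGO2 KD, 314 lower and 62 higher in LaminB KD, and 851 lower in AGO2 KD than in LaminB KD. With a margin of 50 points these were 276 lower, 29 lower and 0 higher, and 167 lower. When at least 250 bp were asked for, 253 sides were lost in AGO2 KD and 5 gained in LaminB KD.

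With 1 library left out at a time, AGO2 KD against mock gave 491 to 1038 lower, 0 to 2 higher, 171 to 636 lost and 0 to 1 gained sides, with the highest numbers of lower and lost sides when AGO2 KD replicate 2 was the one left out. LaminB KD gave 110 to 137 lower, 12 to 29 higher, 47 to 62 lost and 2 to 7 gained sides, and AGO2 KD against LaminB KD gave 372 to 966 lower and 0 to 5 higher. Window coverage ranged from −38.6 to −17.1 points for AGO2 KD and from −5.07 to −3.77 points for LaminB KD. Side imbalance ranged from −9.79 to 2.39 points (AGO2 KD minus mock) and from −11.0 to 1.15 points (AGO2 KD minus LaminB KD), positive without AGO2 KD replicate 1. The longer against the shorter gene ranged from −0.743 to 0.232 points in LaminB KD minus mock, positive without LaminB KD replicate 2. Divergent minus tandem sides ranged from 27.0 to 31.9 points, with an exact p of 0.0625, the smallest that 5 libraries can give. Replicate numbers are labels only, and the deviations of same-numbered libraries correlated at −0.03 to 0.066. With the replicate block the differences in window coverage were the same, −27.8, −4.42 and −23.4 points, with an exact p of 0.5, the smallest that pairs of this number can give.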
